A study of Mus musculus with 2 samples.

Results

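The immediate early and heat shock genes examined here are 37 rows of a single-cell count table of microglia, taken from 32285 genes by a list of names. They were set out as 10 AP-1 and Egr transcription factors, 12 other immediate early genes, 7 heat shock genes and 8 feedback genes of the NF-kB and cytokine pathways. The table holds 2 libraries, each made from the pooled microglia of 5 APPswe/PS1δE9 (PSAPP) mice of both sexes, a transgenic line that forms amyloid plaques. From 9 to 10 months of age, mice were gavaged daily at lights on with vehicle (VEH, 0.5% methylcellulose in PBS) or with lemborexant (LEM, 30 mg/kg/day), which blocks both orexin receptors, for 30 days. Cortex and hippocampus were homogenised on ice and cleared on Percoll, and living CD45lo CD11b+ cells were sorted and counted with a 5′ droplet kit. All mice of both libraries carried the transgenes, so no wild-type level is given.

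Immediate early genes are transcribed within minutes of a stimulus without any new protein being made. *Fos* and *Jun* family proteins pair to form AP-1, which binds DNA, and Egr proteins are zinc finger factors switched on by the same kinases. Heat shock genes encode chaperones that bind unfolded proteins and are driven by the factor HSF1, while NF-kB switches on its own inhibitors, such as *Nfkbia*. In isolated microglia many of these genes are also known to be switched on by the dissociation of the tissue. No inhibitor of transcription is named in the methods, so what was present in the living brain and what arose during isolation cannot be told apart.

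The VEH library held 18374 cells and 116229678 counts, and the LEM library 24392 cells and 160752298 counts, with medians of 5971 and 6034 counts per cell. There is 1 library per treatment, so no test between treatments was possible. Levels are given as CPM, the counts of a gene scaled so that all counts of a group of cells sum to 1000000, with an exact Poisson 95% interval, and ratios as log2 of LEM over VEH with an exact 95% binomial interval. These intervals cover counting error only, and not the differences between mice or between preparations. The pooled mice were split by sex, calling cells female by *Xist* and male by Y-linked genes, into 5686 female and 9025 male cells in VEH and 8409 and 11223 in LEM. The female and male cells come from different mice of the same treatment but share the library, so their difference shows how far mice of different sex lay apart, not replicate error. All 6 microglial marker genes were abundant in both libraries, summing to 40976 CPM in VEH and 41812 CPM in LEM. Neuronal markers summed to 0.731 and 0.523 CPM. Choroid plexus markers summed to 435 CPM in VEH and 1317 CPM in LEM.

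A count was found in at least 10% of either library's cells for 27 of the 37 members, which are called well-counted below. The 10 that were not are *Fosl2*, *Egr2*, *Egr3*, *Dusp2*, *Nr4a1*, *Nr4a2*, *Hspa1a*, *Hspa1b*, *Hspb1* and *Gadd45b*, each of which reached 1% of cells in one library or both. *Hsph1* passed only through the VEH library, where 11.1% of cells held a count, against 9.26% in LEM, so counts of lower members are also given without it. Together the members took 2.35% of all counts in VEH and 2.13% in LEM.

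Promoter sequences are shown for 6 members that cover the 4 groups, to show motifs of the kinds that immediate early, heat shock and NF-kB target genes are known for. They are from RefSeq (GRCm38.p6), which listed a promoter for 30 of the 37 genes, and begin 200 bases before the transcription start, which for *Egr2* is a start that GENCODE also gives. Each stops short of any annotated exon, and capitals mark a match. The searched 250 bases before the start were scanned on both strands. The cyclic AMP response element TGACGTCA was found in 1.55% of 32851 promoters and in those of *Dusp1* and *Btg2* among the members. A heat shock element, GAANNTTC, was found in 6.69%, and among the members in *Fosl2*, *Jun*, *Hspa1a*, *Hspa1b*, *Hspb1* and *Hspe1*. An NF-kB motif was found in 5.0% of promoters and a MEF2 motif in 0.508%, and in 6 and 3 of the 30 member genes. The shares are of promoters, whereas a member gene with several starts was counted if any of them matched. A CArG box, the site of serum response factor, was found in 1.47%, and among the members in *Egr2* and *Zfp36*. The AP-1 element TGACTCA was found in 4.46% of promoters and in none of the members' windows. A match is a string of letters and was not shown to be bound here. In *Egr2*, *Dusp1* and *Klf2* the marked motifs are the CArG box, the cyclic AMP response element and the MEF2 motif, in *Hspa1a* and *Hspa1b* the heat shock element, and in *Nfkbia* the NF-kB motif.
Egr2, chr10:67537669-67537868, plus strand: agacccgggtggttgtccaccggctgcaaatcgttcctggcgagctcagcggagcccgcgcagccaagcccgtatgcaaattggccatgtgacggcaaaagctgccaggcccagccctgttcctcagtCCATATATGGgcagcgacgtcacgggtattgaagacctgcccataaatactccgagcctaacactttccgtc
Dusp1, chr17:26508520-26508672, minus strand: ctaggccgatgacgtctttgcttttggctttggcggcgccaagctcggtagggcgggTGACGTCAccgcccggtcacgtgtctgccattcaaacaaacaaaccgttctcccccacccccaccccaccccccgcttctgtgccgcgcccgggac
Klf2, chr8:72318862-72319032, plus strand: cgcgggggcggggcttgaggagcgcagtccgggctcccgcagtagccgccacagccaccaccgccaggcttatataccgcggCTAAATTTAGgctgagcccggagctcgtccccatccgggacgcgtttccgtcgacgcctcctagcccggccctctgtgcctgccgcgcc
Hspa1a, chr17:34972157-34972356, minus strand: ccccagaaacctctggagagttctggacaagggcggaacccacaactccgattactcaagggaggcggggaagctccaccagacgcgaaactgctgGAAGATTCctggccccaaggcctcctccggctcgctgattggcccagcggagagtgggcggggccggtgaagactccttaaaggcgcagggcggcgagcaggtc
Hspa1b, chr17:34959239-34959438, minus strand: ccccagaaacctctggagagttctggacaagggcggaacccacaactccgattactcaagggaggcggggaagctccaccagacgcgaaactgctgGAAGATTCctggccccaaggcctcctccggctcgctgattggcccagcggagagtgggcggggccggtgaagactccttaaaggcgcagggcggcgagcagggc
Nfkbia, chr12:55492648-55492847, minus strand: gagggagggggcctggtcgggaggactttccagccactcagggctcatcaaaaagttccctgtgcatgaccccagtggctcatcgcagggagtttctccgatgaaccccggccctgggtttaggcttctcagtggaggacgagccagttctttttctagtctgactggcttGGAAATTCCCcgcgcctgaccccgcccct
*Hspa1a* (chr17:34969190-34972156) and *Hspa1b* (chr17:34956436-34959238), protein-coding genes that lie side by side on the minus strand, are close copies. Their windows matched at 199 of 200 bases and their transcripts at 84.3% of aligned positions. Reads from their shared stretches can be assigned to either or to none, so the separate counts of this pair are uncertain.

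AP-1 and Egr genes were lower in LEM than in VEH, including *Fos*, *Fosb*, *Jun*, *Atf3* and *Egr1*. A ratio of at least 0.1 on the log2 scale, in either direction, was taken as a difference. By that measure 6 of the 7 AP-1 and Egr genes counted in 10% of cells were lower in LEM and none was higher. Among all 7526 genes counted in that share of cells, 9.86% were lower and 14.1% higher. The median ratio was −0.24 over all 10 AP-1 and Egr genes and −0.21 over the 7, beside 0.01 over the 7526 genes.

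*Fos* was at 1682 CPM (1675 to 1690) in VEH and 1393 CPM (1388 to 1399) in LEM. It was at 1577 CPM in female and 1736 CPM in male VEH cells, and at 1319 and 1459 CPM in female and male LEM cells. Both LEM values lay below both VEH values. The ratio of *Fos* was −0.27 in all cells, −0.26 for females and −0.25 for males. *Fosb*, a partner of Jun proteins whose truncated form is long-lived in neurons, had the lowest ratio of the group's well-counted genes. Its level was 385 CPM in VEH and 252 CPM in LEM, a ratio of −0.61 (−0.63 to −0.59). It was at 364 and 405 CPM in female and male VEH cells and at 275 and 239 CPM in female and male LEM cells. The female ratio was thus −0.41 and the male ratio −0.76, and the sexes lay in opposite order in the 2 libraries. *Jun*, the main partner of Fos in AP-1, was at 3523 CPM in VEH and 3044 CPM in LEM. The values in female and male cells were 3398 and 3601 CPM in VEH and 2963 and 3123 CPM in LEM, so that the ratio was −0.20 and −0.21, with no overlap between the treatments. *Atf3*, a stress-induced factor of the same bZIP class, was at 324 CPM in VEH and 266 CPM in LEM, and *Egr1* at 1253 and 1112 CPM. Their ratios were −0.29 and −0.17, with the same sign in both sexes. Female and male VEH cells differed by 0.19 in *Egr1*, more than its ratio between libraries, though both LEM values lay below both VEH values.

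The rest of the group was less even. *Jund*, which is less inducible than other Jun genes, had a ratio of −0.14, and *Junb*, a Jun protein that can hold back Jun activity, one of −0.07. *Junb* was at 2483 CPM in female and 2169 CPM in male VEH cells and at 2221 and 2136 CPM in LEM, so female LEM cells lay between the VEH values. *Egr2*, a factor needed for myelination in Schwann cells and induced in macrophages, was at 15.5 CPM in VEH and 11.4 CPM in LEM, and *Egr3* at 3.48 and 2.21 CPM. Male VEH cells held the most *Egr3*, 4.24 CPM, while female VEH and female LEM cells were at 2.22 and 2.21 CPM. *Fosl2* was the only gene of the group with a ratio above 0, 0.17 (0.05 to 0.29), and it was −0.07 in female and 0.36 in male cells.

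**Figure D1:**
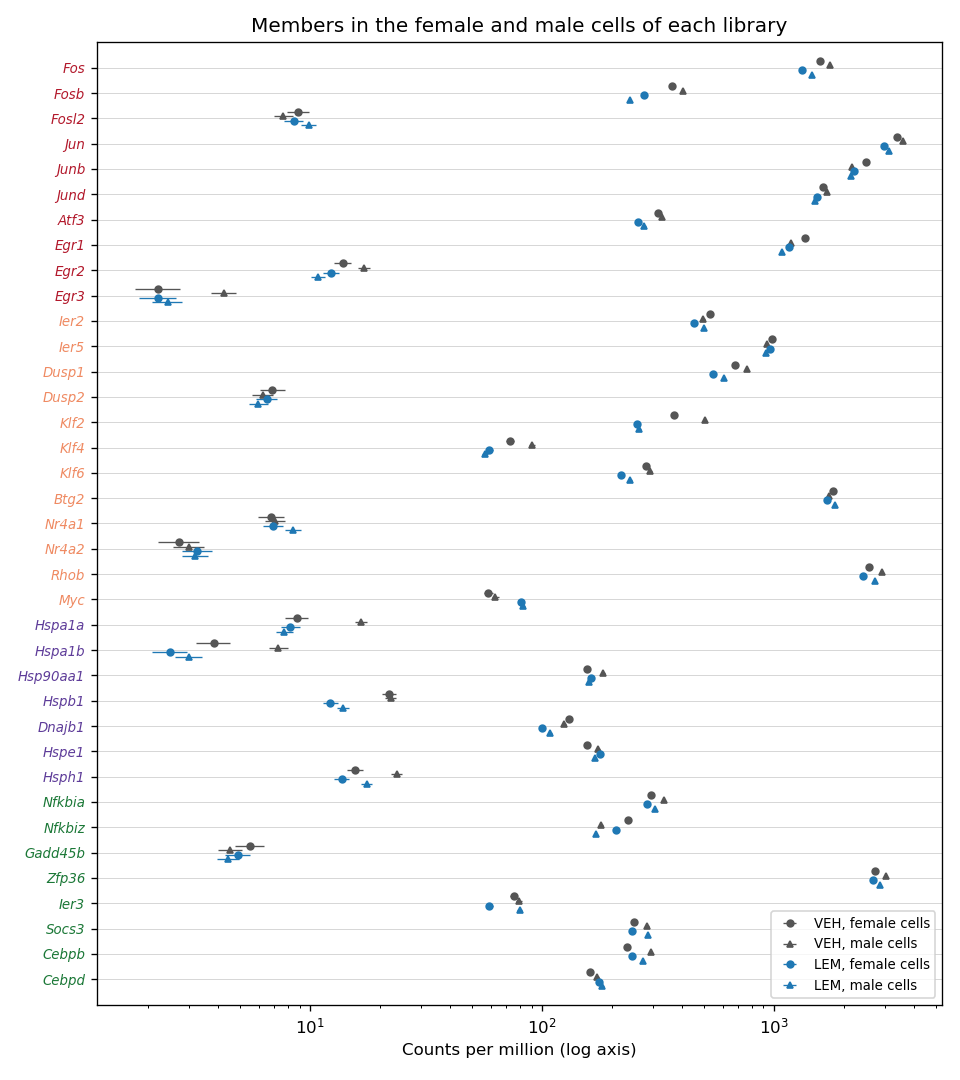
Level of each member in CPM (log axis) in the female (circles) and male (triangles) cells of the VEH (grey) and LEM (blue) libraries, with exact Poisson 95% intervals. Gene names are coloured red for AP-1 and Egr, orange for other immediate early, purple for heat shock and green for NF-kB feedback genes. Both LEM points lie to the left of both VEH points for 11 of the 27 well-counted members, beside 15.5% of all genes. Among these are *Fos*, *Fosb*, *Jun*, *Dusp1*, *Klf2*, *Klf4* and *Klf6*. They lie to the right for *Myc* and *Cebpd*, beside 21.5% of all genes.

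The other immediate early genes were mixed, with 4 of 9 well-counted genes lower in LEM, beside 9.86% of all genes, 1 higher, beside 14.1%, and the rest within 0.1. The 4 were *Klf2*, *Klf4*, *Klf6* and *Dusp1*. *Klf2*, a zinc finger factor that keeps endothelial and myeloid cells quiescent, had the lowest ratio of the 27 members, −0.82 (−0.84 to −0.80). It was at 455 CPM in VEH and 257 CPM in LEM, and 58.7% of the VEH cells but 41.8% of the LEM cells held a count. Female and male VEH cells were at 369 and 503 CPM and LEM cells at 257 and 262 CPM. The VEH sexes were thus 0.45 apart on the log2 scale and the LEM sexes 0.03 apart, and every LEM value was below both VEH values. *Klf4*, a related factor, was likewise highest in male VEH cells and lower in both sexes of LEM than in either of VEH, with 72.7 and 90.3 CPM in female and male VEH cells and 59.3 and 56.7 CPM in LEM cells. Its ratio was −0.54, and that of *Klf6* −0.32. *Dusp1*, a phosphatase that switches off the MAP kinases that induce these genes, was at 733 CPM in VEH and 572 CPM in LEM. Its ratio of −0.36 was −0.33 in both sexes, while female and male cells differed by 0.17 within each library.

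*Myc*, a growth factor-induced transcription factor, was the one well-counted member that was higher in LEM. Its level was 60.8 CPM (59.4 to 62.2) in VEH and 81.3 CPM (79.9 to 82.7) in LEM, and 24.5% and 32.0% of cells held a count. Its ratio of 0.42 was 0.46 among females and 0.39 among males, and the sexes differed by at most 0.10 within a library. *Btg2*, which slows cell division, and *Ier5*, which encodes a nuclear regulator of HSF1, had ratios of 0.01 and −0.03. *Ier2*, a nuclear protein, was −0.23 in female and 0.01 in male cells. *Rhob*, a small GTPase of endosomes, was at 2771 CPM in VEH and 2590 CPM in LEM, a ratio of −0.10 that lay just inside the limit. The rarely counted *Dusp2*, a nuclear phosphatase, and the orphan nuclear receptors *Nr4a1* and *Nr4a2* had ratios of −0.12, 0.08 and 0.09, and the interval of each included 0.

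Ratios of the 7 heat shock genes ran from −1.11 to 0.05, and the 3 genes furthest below 0 were counted in few cells. Of the 4 well-counted ones *Dnajb1* was lower in LEM, *Hsp90aa1* and *Hspe1* were within 0.1, at −0.10 and 0.05, and *Hsph1* was counted only through the VEH library, where it was higher. Without *Hsph1*, 1 of 3 was thus lower and none higher, beside 9.86% and 14.1% of all genes. *Dnajb1*, the Hsp40 that loads clients on Hsp70, was at 127 CPM in VEH and 104 CPM in LEM, with 131 and 124 CPM in female and male VEH cells and 99.5 and 108 CPM in LEM cells. Its ratio was −0.30, and both LEM values lay below both VEH values. *Hsph1*, a nucleotide exchange factor for Hsp70, was at 15.6 and 23.6 CPM in female and male VEH cells and at 13.7 and 17.5 CPM in LEM cells. The male LEM value of *Hsph1* lay above the female VEH value, and the sexes were 0.60 apart in VEH, more than the ratio of −0.34 between libraries. *Hsp90aa1*, the inducible cytosolic Hsp90, had a ratio of 0.06 in female and −0.19 in male cells, and *Hspe1*, the mitochondrial co-chaperone, 0.19 and −0.04.

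The inducible Hsp70 genes differed most in male cells. *Hspa1a* was at 8.73 CPM in female and 16.6 CPM in male VEH cells, and at 8.21 and 7.75 CPM in female and male LEM cells. Male VEH cells thus stood apart from the other 3 groups. The LEM over VEH ratio of *Hspa1a* was −0.09 (−0.30 to 0.12) among females, whereas among males it was −1.10 (−1.25 to −0.95). *Hspa1b* showed 3.83 and 7.29 CPM in female and male VEH cells and 2.48 and 3.0 CPM in LEM cells, with ratios of −0.63 and −1.28. *Hspb1*, the small chaperone Hsp27, was at 21.8 and 22.2 CPM in female and male VEH cells and at 12.2 and 13.9 CPM in LEM cells, and its ratios were −0.83 and −0.68.

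Their counts sat in few cells, so counting intervals understate their error. Cells with at least 5 counts of *Hspb1* numbered 180 (0.980%) in VEH and 155 (0.635%) in LEM and held 77.8% and 72.9% of all its counts. For *Hspa1a* there were 70 such cells in VEH, 52 of them male and 8 female, and 42 in LEM, of which 22 were male and 6 female, with 34.7% and 28.6% of its counts. Another 13 of the 42 LEM cells, and 3 of the 70 VEH cells, held both *Xist* and Y-linked counts, as 7.23% of all LEM and 5.34% of all VEH cells did, and doublets were not called. Without the cells with at least 5 counts of the gene, the ratio was −0.49 for *Hspb1* and −0.71 for *Hspa1a*. In the 70 VEH cells *Hspa1b* was at 114 CPM, against 5.0 CPM in cells without *Hspa1a*, and in the 42 LEM cells at 150.1 against 2.30 CPM. Over all cells, 13.7% of those with a count of *Hspa1b* in VEH and 9.72% in LEM also held *Hspa1a*, and 5.56% and 3.16% of those with *Hspa1a* held *Hspa1b*. Since reads of the pair can be assigned to either gene, these shares are as uncertain as the separate counts. *Hsph1* was also higher in the cells with at least 5 counts of *Hspa1a*, at 45.8 against 19.8 CPM in VEH and 36.1 against 15.9 CPM in LEM, on 25 and 13 counts.

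**Figure D2:**
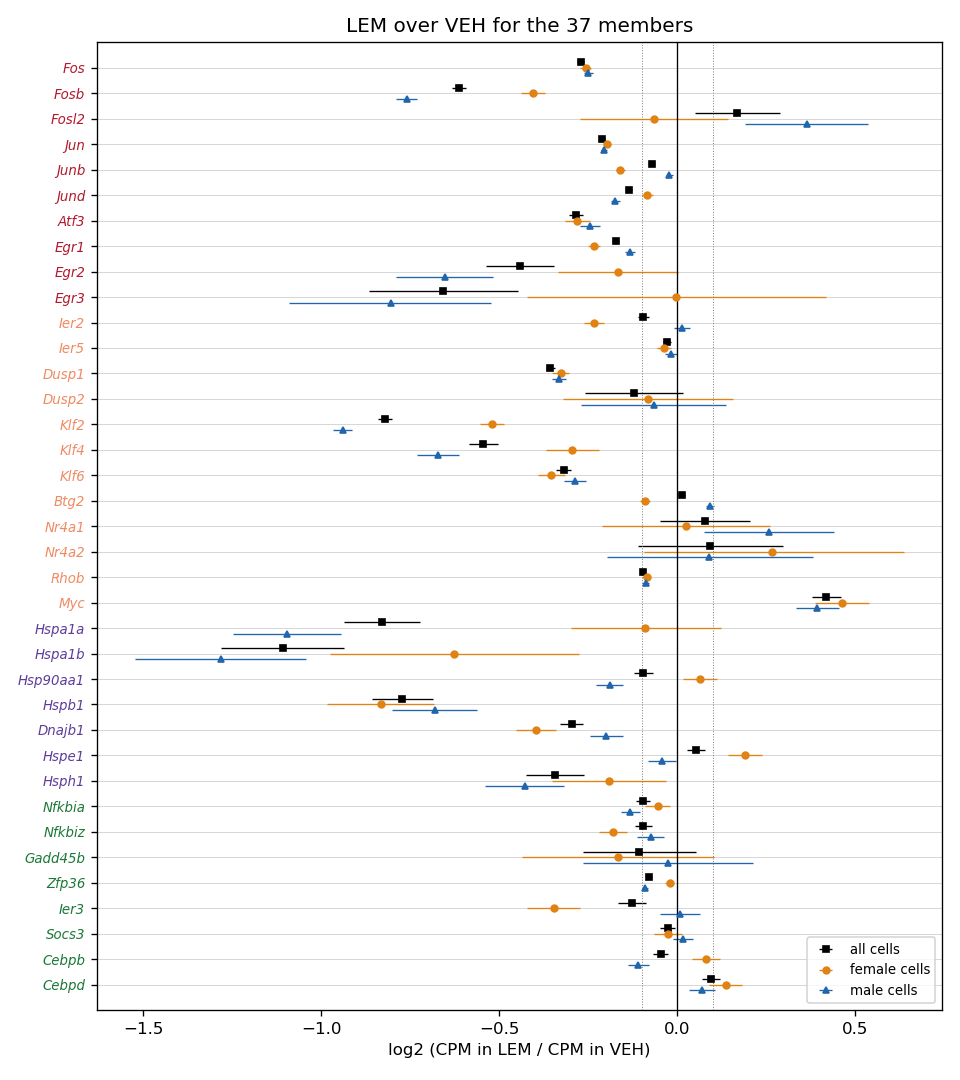
log2 ratio of LEM over VEH for each member in all cells (black squares), female cells (orange circles) and male cells (blue triangles), with exact 95% binomial intervals for counting error. Dotted lines mark a ratio of 0.1 in either direction. Most points lie left of 0, *Myc* lies at 0.42, and the ratios of *Klf2*, *Fosb* and *Hspa1a* are lower for males than for females.

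Of the NF-kB feedback genes, 1 of 7 well-counted ones was lower in LEM, beside 9.86% of all genes, and none was higher, beside 14.1%. *Nfkbia* and *Nfkbiz* lay just inside the limit, and with median-of-ratios scaling 3 of 7 were lower, beside 12% of all genes. *Nfkbia*, which holds NF-kB in the cytoplasm, was at 319 CPM in VEH and 298 CPM in LEM. *Zfp36*, which destabilises cytokine mRNAs, was at 2918 and 2762 CPM, and *Socs3*, an inhibitor of cytokine receptor signalling, at 272 and 267 CPM. Their ratios were −0.10, −0.08 and −0.03. *Nfkbiz*, a nuclear IkB protein, was higher in female than in male cells of both libraries, by 0.39 in VEH and 0.29 in LEM, which exceeded its ratio of −0.10 between libraries. *Ier3*, a regulator of cell survival, was the gene counted as lower, with 75.4 and 79.5 CPM in female and male VEH cells and 59.3 and 80.0 CPM in LEM cells. Only female LEM cells were low, with a ratio of −0.35 against 0.01 for the males. *Cebpb* and *Cebpd*, bZIP factors of myeloid and acute phase genes, had ratios of −0.05 and 0.09, and *Gadd45b*, a stress sensor of the p38 pathway, one of −0.11 (−0.27 to 0.05).

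Over the 27 well-counted members, 13 were lower in LEM, beside 9.86% of all genes, and 1 was higher, beside 14.1%. Leaving out *Hsph1*, 12 of 26 were lower. Without the choroid plexus and border macrophage cells 14 of 27 were lower, or 13 of 26 without *Hsph1*, beside 9.65% of all genes. With the 10% asked of the mean of both libraries the counts were again 13 and 1, beside 9.62% and 13.7% of all genes. Of the 13 lower members, 11 were lower in female and in male cells alike, or 10 without *Hsph1*, beside 4.36% of all genes, and *Myc* was higher in both, beside 6.23% of all genes. For 11 members both LEM values lay below both VEH values, beside 15.5% of all genes, and 6 of these were AP-1 and Egr genes. The 2 members with both LEM values above both VEH values were *Myc* and *Cebpd*, beside 21.5% of all genes. At a stricter ratio of 0.58, 2 members were lower, *Fosb* and *Klf2*, beside 0.438% of all genes, and none was higher, beside 0.399%. Over all 37 members 20 were lower by 0.1, beside 14.1% of the 11910 genes counted in 1% of cells, and 2, *Myc* and *Fosl2*, were higher, beside 21.0%. *Hspa1b*, which is among the 20, reached 1% only through VEH, with a count in 1.75% of VEH and 0.886% of LEM cells.

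Wider lists, which hold none of the members, were counted in the same way. Of 30 further immediate early genes 14 were counted in 10% of cells, 2 of them, *Csrnp1* and *Gadd45g*, only through VEH. Of the other 12, 6 were lower and 3 higher in LEM, beside 9.86% and 14.1% of all genes. The named ones of the list were *Ppp1r15a*, which ends the integrated stress response, at 173 CPM in VEH and 131 CPM in LEM, *Gadd45g*, a relative of *Gadd45b*, at 27.4 and 19.7 CPM, and *Rgs1*, a brake on G protein signalling, at 441 and 370 CPM. Their ratios were −0.41, −0.47 and −0.25. Of 24 further chaperone genes 21 were counted, with 7 lower and none higher, beside the same shares of all genes. *Dnaja1*, an Hsp40, was at 165 and 132 CPM, a ratio of −0.32, while the constitutive *Hspa8*, an Hsp70 of unstressed cells, was 0.16 in female and −0.31 in male cells. Of 27 further NF-kB genes 22 were counted, with 7 lower and 1 higher, beside the same shares. The counts of these lists are of all cells, and in each list some of the called genes had opposite signs in female and male cells. *Bcl2a1b*, an anti-apoptotic gene with near-identical copies, had the lowest ratio of the named genes of the wider lists, −0.84, with −0.40 for females and −1.30 for males.

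Cell states were set by the deposited counts of marker genes that are not members. Homeostatic cells numbered 14407 in VEH and 18665 in LEM. Disease-associated microglia (DAM), the lipid-handling state found at plaques, numbered 262 and 397. Cells with MHC class II markers numbered 336 and 276, interferon-responsive cells 398 and 760, mitotic cells 147 and 221, and cells rich in *Ccl3* and *Ccl4*, chemokines of activated microglia, 2408 and 3295. DAM cells had a median of 11090 counts in VEH and 11117 in LEM, against 5676 and 5759 in homeostatic cells. Comparisons between states were made on CPM, and those of DAM and mitotic cells were repeated with gates on cells thinned to 2000 counts. The comparisons of MHC class II, interferon-responsive and chemokine-rich cells were not repeated in this way.

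DAM cells held less *Jun*, *Cebpd* and *Socs3* than homeostatic cells did and, on the deposited counts, more *Ier3*. In both libraries 12 of 27 members were lower by at least 0.58, of which 4 were AP-1 and Egr, 4 other immediate early, 1 heat shock and 3 NF-kB feedback genes, beside 12.5% of all genes, and *Ier3* was higher, beside 4.64% of all genes. *Jun* was at 1935 CPM in DAM and 3684 CPM in homeostatic cells of VEH, and at 1693 and 3215 CPM in LEM. *Cebpd* was at 67.0 and 186 CPM in VEH and at 75.2 and 198 CPM in LEM, and *Socs3* at 111 and 287 CPM and at 110.0 and 282 CPM. These ratios of state over homeostatic cells were −0.93 and −0.92 for *Jun*, −1.47 and −1.40 for *Cebpd* and −1.37 and −1.36 for *Socs3*, in VEH and LEM. The median of all genes in DAM over homeostatic cells was −0.25 in VEH and −0.26 in LEM. Relative to that median 6 members were lower by 0.58, with *Jun* as the 1 AP-1 and Egr gene left of 4, beside 4.65% of all genes, and 2, *Ier3* and *Hspe1*, were higher, beside 8.41%. With gates on thinned counts, which left 77 and 125 DAM cells, the ratios lay further below 0, at −1.38 and −1.31 for *Jun*, −2.84 and −1.80 for *Cebpd* and −1.80 and −2.46 for *Socs3*. The intervals of *Cebpd* in LEM (−2.67 to −1.05) and *Socs3* in VEH (−2.71 to −1.02) held the ratios on deposited counts. With these gates *Atf3* was not lower, and *Fosb* had ratios of −1.12 and −0.50. *Fos*, *Junb*, *Jund* and *Egr1* had ratios of −1.42, −1.21, −0.83 and −1.27 in VEH and −1.07, −1.52, −0.81 and −0.98 in LEM, though the median of all genes was not taken there. *Ier3* went the other way, at 181 CPM in DAM and 59.9 CPM in homeostatic cells of VEH and at 98.9 and 58.5 CPM in LEM. With gates on thinned counts the ratio of *Ier3* was 1.11 in VEH but 0.12 (−0.64 to 0.78) in LEM, so it no longer counted as higher in both libraries. The rarely counted *Egr2* was at 30.9 CPM in DAM and 12.6 CPM in homeostatic cells of VEH and at 24.0 and 9.62 CPM in LEM. Its ratio with gates on thinned counts was 1.25 (−0.38 to 2.48) in VEH and 1.81 (0.59 to 2.80) in LEM. *Atf3* was slightly higher on the deposited counts, with ratios of 0.23 and 0.29. With gates on thinned counts its ratio was 0.03 (−0.40 to 0.43) in VEH and 0.27 (−0.07 to 0.59) in LEM. In MHC class II cells 9 members were lower by 0.58, beside 13.6% of all genes, and *Ier3* was higher, beside 4.74%. Relative to the median of all genes there, 3 were lower, none of them an AP-1 or Egr gene, beside 4.0% of all genes, and 2 were higher, beside 8.44%. *Egr2* was at 37.2 CPM in VEH and 32.2 CPM in LEM in these cells. The DAM markers summed to 2277 and 2494 CPM in MHC class II cells, against 1830 and 1698 CPM in DAM cells, so the 2 states share markers. *Ccl3* and *Ccl4* summed to 2468 and 2223 CPM in MHC class II, 2975 and 2406 CPM in DAM, and 188 and 180 CPM in homeostatic cells. Cells with at least 10 counts of these 2 genes were taken out after the MHC class II and DAM gates but before the homeostatic gate. The low homeostatic values are thus partly set by the gates. What this does to the ratios of *Ier3* and *Egr2*, which were also higher in chemokine-rich cells, was not tested.

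Mitotic cells were also low in many of these genes. In both libraries 12 members were lower by 0.58 than in homeostatic cells, beside 9.86% of all genes. *Junb* was at 925 CPM in VEH and 947 CPM in LEM, against 2360 and 2275 CPM in homeostatic cells, and *Zfp36* at 1113 and 1238 CPM, against 3003 and 2890 CPM. *Fosb* and *Ier2* had ratios of −1.54 and −1.29 in VEH and −1.09 and −1.43 in LEM. *Hsp90aa1* was the well-counted member that was higher, at 467 and 420 CPM in mitotic cells against 162 and 148 CPM in homeostatic cells, beside 10.8% of all genes higher. *Egr1* was nearer to homeostatic cells, with ratios of −0.13 in VEH and −0.11 in LEM. Gates on thinned counts left 105 and 159 mitotic cells. There the ratios in VEH and LEM were −1.66 and −1.41 for *Junb*, −1.79 and −1.48 for *Zfp36* and 1.67 and 1.71 for *Hsp90aa1*. *Fos* and *Klf2* were lower by 0.58 only in VEH, at −0.59 and −1.25, against −0.46 and −0.52 in LEM. Interferon-responsive cells were near homeostatic cells for most of these genes. None of the 27 well-counted members was higher or lower by 0.58, beside 2.06% and 0.545% of all genes. *Hspa1b* was at 29.8 CPM in VEH and 14.2 CPM in LEM, against 5.68 and 2.27 CPM in homeostatic cells, and *Hspa1a* at 28.2 and 23.4 CPM against 14.1 and 7.25 CPM. Few cells carried these levels, since 6 of the 398 VEH and 2 of the 760 LEM cells held 75.8% and 73.1% of the state's *Hspa1b* counts, and 8 and 3 cells 68.9% and 71.2% of its *Hspa1a* counts. Without cells with at least 5 counts of the gene, *Hspa1b* was at 7.33 CPM in VEH and 3.83 CPM in LEM, against 3.71 and 1.82 CPM in homeostatic cells. *Hspa1a* was then at 9.01 and 6.76 CPM against 9.48 and 5.89 CPM. Cells rich in *Ccl3* and *Ccl4* held more *Egr2*, *Ier3* and *Gadd45b*, with ratios of 0.86, 1.00 and 1.57 in VEH and 0.63, 0.88 and 1.64 in LEM. *Dusp2* and *Nr4a1* also passed 0.58 in both libraries, with ratios of 1.01 and 1.22 in VEH and 0.85 and 0.59 in LEM. *Ier3* was the 1 well-counted member of these, beside 0.492% of all genes. *Jun* and *Fos* in them lay within 0.09 of homeostatic cells.

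**Figure D3:**
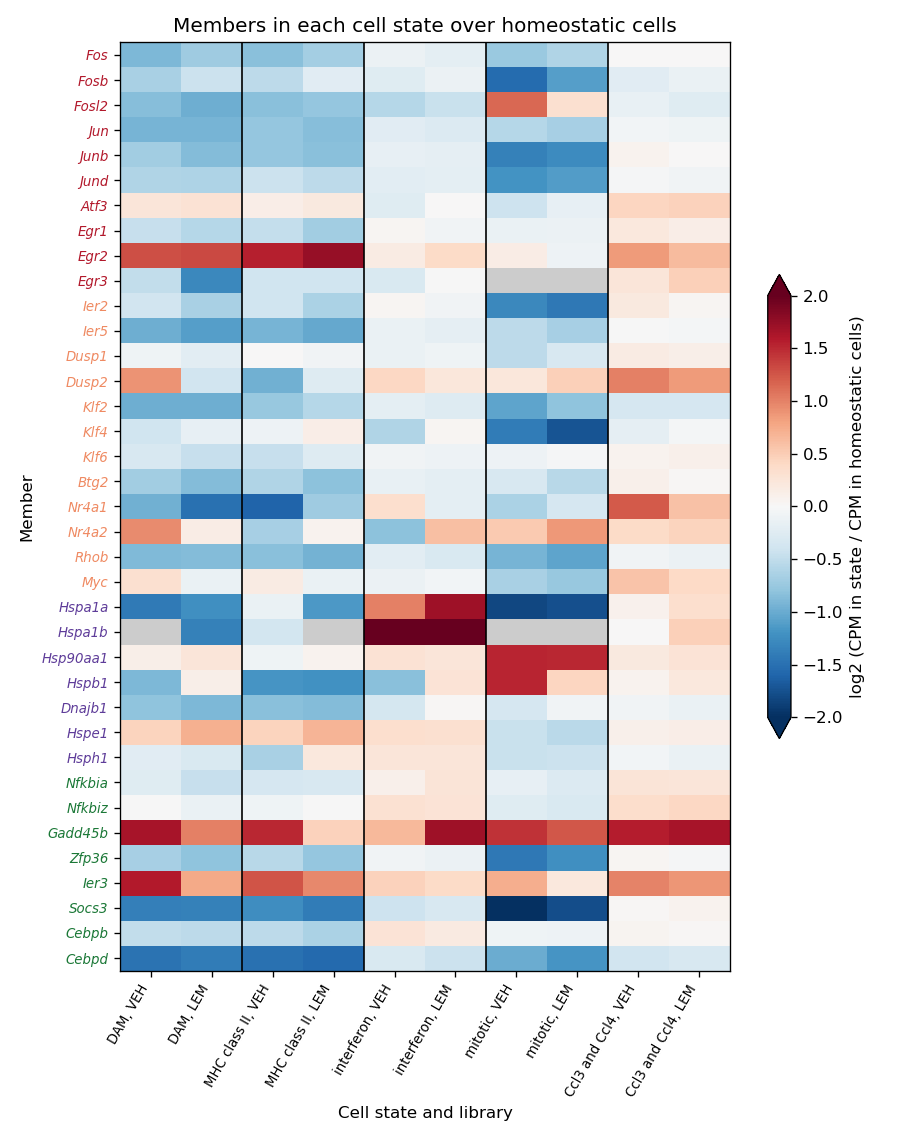
log2 ratio of each member's CPM in 5 cell states over homeostatic cells, by library, with the colour scale ending at 2 in either direction and grey cells where a state held at most 3 counts. DAM and MHC class II columns are blue for *Jun*, *Socs3* and *Cebpd*, and *Hsp90aa1* is red in mitotic cells.

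Within single states the AP-1 and Egr genes were again lower in LEM, and so were most genes of some other groups. In homeostatic cells 9 of the 10 AP-1 and Egr genes were below VEH, with a median ratio of −0.23, beside 46.0% of all genes below VEH there. The count was also 9 of 10 in DAM, MHC class II, interferon-responsive and chemokine-rich cells, with medians of −0.23, −0.22, −0.20 and −0.25. Of all genes 49.3%, 49.1%, 49.3% and 44.0% were below VEH in these states, and the median of all genes lay between 0.0030 and 0.015 in them and in homeostatic cells. These shares and medians are of the genes counted in 10% of cells, whereas the counts by group include rarer members. Of the sexed cells 28.8% in VEH and 51.1% in LEM were female among interferon-responsive cells and 24.1% and 47.2% among MHC class II cells, against 38.4% and 41.7% among homeostatic cells, and the part of this in the within-state ratios was not tested. Over the well-counted members 14 were lower by 0.1 in homeostatic cells, or 13 without *Hsph1*, beside 10.5% of all genes there. In mitotic cells, which rest on the fewest cells of these states, 8 of the 9 AP-1 and Egr genes with enough counts were below VEH, with a median of −0.12, beside 49.3% of all genes. In DAM cells 11 of 12 other immediate early genes (median −0.33), 7 of 8 NF-kB feedback genes (−0.22) and 4 of 7 heat shock genes (−0.006) were below VEH, beside 49.3%. In homeostatic cells 8 of 12 other immediate early genes (−0.05), 7 of 8 NF-kB feedback genes (−0.05) and 6 of 7 heat shock genes (−0.36) were, beside 46.0%.

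Per cell, summed AP-1 and Egr counts were lower in LEM at the median and at both quartiles. Each cell was thinned to 2000 counts, which left out 1305 VEH and 1215 LEM cells with fewer. The summed count of the 10 AP-1 and Egr genes had a median of 22 in VEH, with quartiles of 15 and 29, and of 19 in LEM, with quartiles of 13 and 26. The median was 22 in VEH and 19 in LEM in female and in male cells. The 5th percentile was 6 in VEH and 5 in LEM over all cells, 5 and 6 in female cells, and 6 and 5 in male cells. Under 1% of cells had none. The sum of the 12 other immediate early genes had a median of 15 in VEH and 14 in LEM, and NF-kB feedback genes one of 8 in both. In female cells the NF-kB feedback median was 7 in VEH and 8 in LEM, and in male cells 8 in both. Heat shock genes had a median of 1 in both, and 40.7% of VEH and 43.3% of LEM cells had no count of them.

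**Figure D4:**
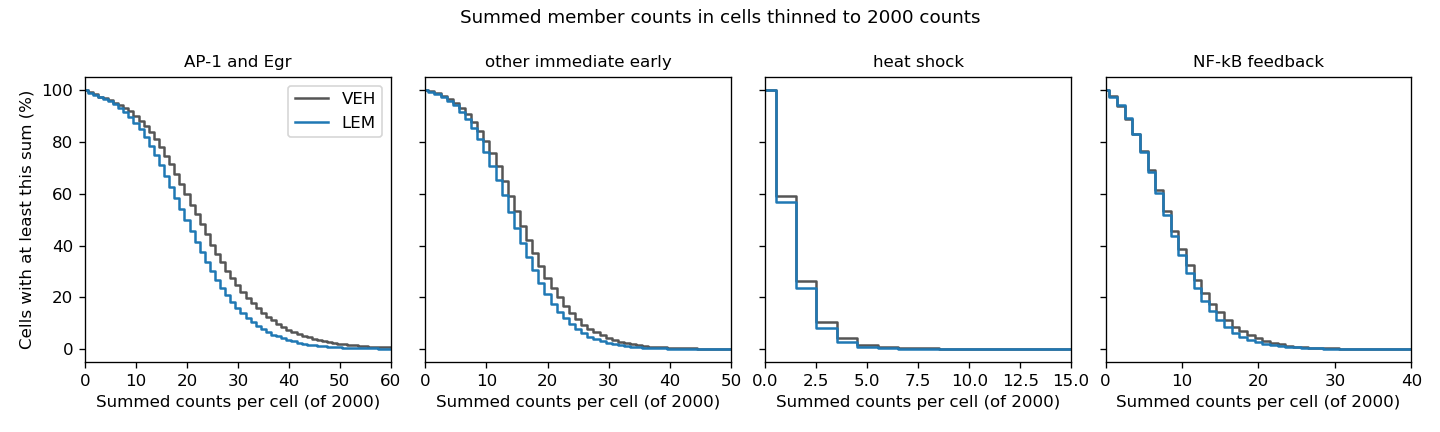
Share of cells (%) with at least a given summed count of the genes of each group, in cells thinned to 2000 counts, for VEH (grey) and LEM (blue). The LEM curve for AP-1 and Egr genes lies left of the VEH curve across most of its range, with medians of 19 and 22, while the NF-kB feedback curves nearly coincide, with a median of 8 in both.

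Across the thinned cells members of the AP-1 and Egr group varied together more than the heat shock genes, which had fewer counts, did. Pearson's r is given as a description over 17069 VEH and 23177 LEM cells, which share depth and library. The highest was that of *Junb* and *Zfp36*, 0.42 in VEH and 0.40 in LEM, and that of *Jun* and *Junb* was 0.35 and 0.32. The median over 21 pairs of well-counted AP-1 and Egr genes was 0.21 in VEH and 0.18 in LEM. Over the 6 pairs of well-counted heat shock genes it was 0.02 and 0.01. On the deposited counts, cells with at least 5 counts of *Klf2* numbered 4233 in VEH and 3164 in LEM. They held more *Klf4* and *Fosb* than the 7597 and 14202 cells without a count. These cells were not thinned, so depth was not held equal. *Klf4* was at 129.6 against 45.8 CPM in VEH and at 97.6 against 39.0 CPM in LEM. *Fosb* was at 556 against 248 CPM in VEH and at 396 against 187 CPM in LEM.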

How the data were processed

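The authors aligned reads to mm10 with Cell Ranger 8.0.0, kept cells by their numbers of genes and counts and by mitochondrial share, and deposited a gene-by-cell table of counts, all whole numbers. SoupX is named in their methods, and whether these counts were corrected for free RNA is not given in the sources used here. Members and lists were chosen with earlier results of these data known. Counts were summed over the cells of a group and divided by their total with scipy 1.17.1, pandas 2.3.3 and numpy 2.4.6 under Python 3.11.15. Sex was called from at least 1 count of *Xist* or of 4 Y-linked genes. Cells with both (5.34% of VEH, 7.23% of LEM) or neither (14.6% and 12.3%) entered only pooled values. States were gated in a set order on the deposited counts, with at least 3 of a state's markers for most, and 1 DAM marker of the list was not used. Doublets were not called. Cells are numbered in the table, so barcodes shared by the libraries could not be counted. All members were named, with genes of the wider lists counted in 10% of cells and at least 0.25 from 0 on the log2 scale in the same direction in both sexes. *Hspa8* was named after its values were seen. The ratio and its interval were tested on Poisson counts simulated with known ratios. The interval assumes such counts, so this checked the calculation, not whether real counts vary in that way. Gene positions were checked in GENCODE M21.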

Additional observations from a re-analysis of the deposited data

How the results depend on the processing

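No paired analysis was possible because each treatment had 1 library. The limits are that 1 pool of 5 mice per treatment gives no replicate error, and that treatment, mice, preparation and library cannot be told apart. Of the 37 members, 27 kept the sign of their ratio under every alternative run. Direction turned for *Fosl2* in female cells (−0.0664), *Ier3* in male cells (0.00816) and *Gadd45b* in thinned cells (0.11). It also turned for 7 members whose ratio lay within 0.1, namely *Ier2* (up to 0.0129), *Btg2* (down to −0.0919), *Nr4a2* (down to −0.253), *Hsp90aa1* (up to 0.0631), *Hspe1* (down to −0.0431), *Socs3* (up to 0.0159) and *Cebpb* (up to 0.0795). The AP-1 and Egr median was −0.25 with median-of-ratios scaling and without the 20 most abundant genes, −0.18 in female cells, −0.23 in male cells and −0.23 with the sexes weighted equally. The other immediate early median was −0.0424 in male and −0.0465 in homeostatic cells, the heat shock median −0.19 in female and −0.43 in male cells, and the NF-kB feedback median −0.0406 in female and −0.0480 in homeostatic cells. The number of members higher in LEM was 2 as a mean of counts per 10000 over cells, 3 in female cells and 2 with the sexes weighted equally, beside 14.7%, 19.4% and 14.6% of all genes. It was 2 at 1% detection and 0 at a ratio of 0.58, beside 21.0% and 0.399% of all genes. The number lower was 20 at 1% detection, with *Hspa1b* among them only through VEH, and 2 at 0.58, beside 14.1% and 0.438% of all genes. The number lower in both sexes was 0 at 0.58, where the share of all genes was not counted. Both median-of-ratios scaling and leaving out the 20 most abundant genes gave 18 members lower, or 17 of 26 without *Hsph1*, beside 12% and 11.9% of all genes, the 5 more being *Ier2*, *Rhob*, *Hsp90aa1*, *Nfkbia* and *Nfkbiz*. In DAM cells 0 of the 27 well-counted members were higher with gates on thinned counts, for which the share of all genes was not counted. Relative to the median of all genes, an alternative chosen after seeing the data, 6 were lower and 2 higher, beside 4.65% and 8.41% of all genes. Taking out cells with at least 5 counts of a heat shock gene, requiring 2 counts for a sex call, asking 10% of the mean of both libraries, and leaving out members that reached 10% through 1 library were also chosen after seeing the data.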

Other observations

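Border-associated macrophages, the macrophages of the brain's coverings and vessels, were few, with 25 cells in VEH and 68 in LEM, and were not among the states compared above, though they are part of each library's totals. *Klf2* was at 481 CPM in VEH and 473 CPM in LEM there, on 102 and 275 counts, while homeostatic microglia were at 490.2 and 277 CPM. *Nfkbiz* was at 363 and 342 CPM in these macrophages, against 189 and 176 CPM in homeostatic microglia. *Jun* was at 2889 CPM in VEH and 2473 CPM in LEM, below the 3684 and 3215 CPM of homeostatic microglia.

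Cells with choroid plexus transcripts numbered 47 in VEH and 142 in LEM. Choroid plexus markers summed to 108993 and 165610 CPM in them, and microglial markers to 25857 and 21848 CPM, so their RNA was mixed. *Hsp90aa1* was at 366 and 309 CPM in these cells, against 162 and 148 CPM in homeostatic microglia, and *Hspe1* at 271 and 277 CPM against 160.3 and 163 CPM. *Klf2* was at 285 CPM in VEH and 92.9 CPM in LEM in these cells, where 61.8% of all genes were below VEH, with a median ratio of −0.12. These 2 gated groups were chosen for mention after their values were seen.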
